A study of Mus musculus with 6 samples.

Results

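The 10 genes described here are markers of macrophages, the phagocytes that live in nearly every tissue, and were measured in the vestibular sensory epithelium of mice after chronic exposure to an ototoxic compound. They were picked by symbol (Csf1r, Ptprc, Aif1, Cd68, Adgre1, Lyz2, Trem2, Tyrobp, Mrc1 and Fcer1g), and each matched 1 of the 52636 genes in the count table. Bulk RNA-seq compared 3 Control mice, which drank plain water, with 3 mice given 30 mM 3,3'-iminodipropionitrile (IDPN) in their drinking water for 8 weeks. IDPN is a nitrile that damages the hair cells (HCs), the sensory receptor cells of the inner ear. All 6 animals were male 129S1/SvImJ mice from a locally bred colony, 2 to 4 months old when the exposure began. Tissue was taken on the last day of treatment. Each library held the RNA of 1 animal, with its 2 utricles and 6 cristae pooled, so the saccules were not part of the tissue and the sensory organs cannot be told apart. In their titles the 3 Control animals carry codes with a common beginning, IDPN 2 and 3 share a different beginning and IDPN 1 has its own, so whatever those codes stand for cannot be told apart from the treatment.

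Macrophages depend for survival on CSF1R, a receptor tyrosine kinase bound by the ligands CSF1 and IL34. Many of their surface receptors have no signalling part of their own and pair with the small adaptors TYROBP and FCER1G, whose cytoplasmic tails recruit the kinase SYK. In the inner ear, macrophages lie mainly in the connective tissue below the sensory epithelium, among vessels and nerve fibres, and take up debris after HC injury. In bulk tissue, fewer or more macrophages and less or more RNA per macrophage cannot be told apart, nor can a marker read from another cell type that expresses it.

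Libraries were of similar depth, with 40474847 to 43566332 estimated counts each. Replicate libraries differed by more than counting error, with a chi-square of their counts of 37.3 to 145 per degree of freedom, a measure that leaves out the noise of amplification. IDPN 2 stood apart from all others. On the first principal component of the 500 most variable genes, which carried 61.3% of the variance, it scored 21.73, against −0.13 and 4.26 for IDPN 1 and 3 and −10.34 to −7.38 for the Control animals. The labelled tissue was borne out by its markers. The 9 HC genes checked, among them Myo7a, Pou4f3 and Otof, summed to 18727 to 29173 normalized counts per library, and the 8 supporting cell genes to 118484 to 143396 in Control and 84700 to 108871 in IDPN.

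All 10 markers were detected in all 6 libraries, and all 10 were abundant enough to receive a Padj (the Benjamini-Hochberg adjusted p over all genes tested by DESeq2). Lyz2, which encodes the antibacterial enzyme lysozyme, was upregulated 1.71-fold. The lysosomal protein Cd68, the mannose receptor Mrc1 and the adaptor Fcer1g had all 3 IDPN libraries above all 3 Control libraries without passing the test. Csf1r, Ptprc and Trem2 had nearly the same mean in both groups. A gene was called when its Padj was under 0.05 and its fold change above 1.5. By this rule 1 of the 10 markers was called higher in IDPN, where 2.32% of all 17650 genes tested were, and 0 were called lower, where 3.42% were. With edgeR 0 of the 10 were called in either direction, against 1.02% of all genes higher and 2.19% lower. At an unadjusted p under 0.05, 4 of the 10 were higher with DESeq2 (7.77% of all genes) and 0 lower, and with edgeR 4 were higher (8.57% of all genes) and 0 lower. The groups did not overlap, with IDPN above, for 4 of the 10 markers and for 11.1% of all genes tested. The median log2-Fold_Change of the 10 markers was 0.52, and that of all genes tested was 0.02. Without IDPN 2 the markers' median was 0.28. With size factors set by total counts, which shifted the median gene to 0.26, the markers' median was 0.76, or 0.49 above that gene.

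**Figure D1:**
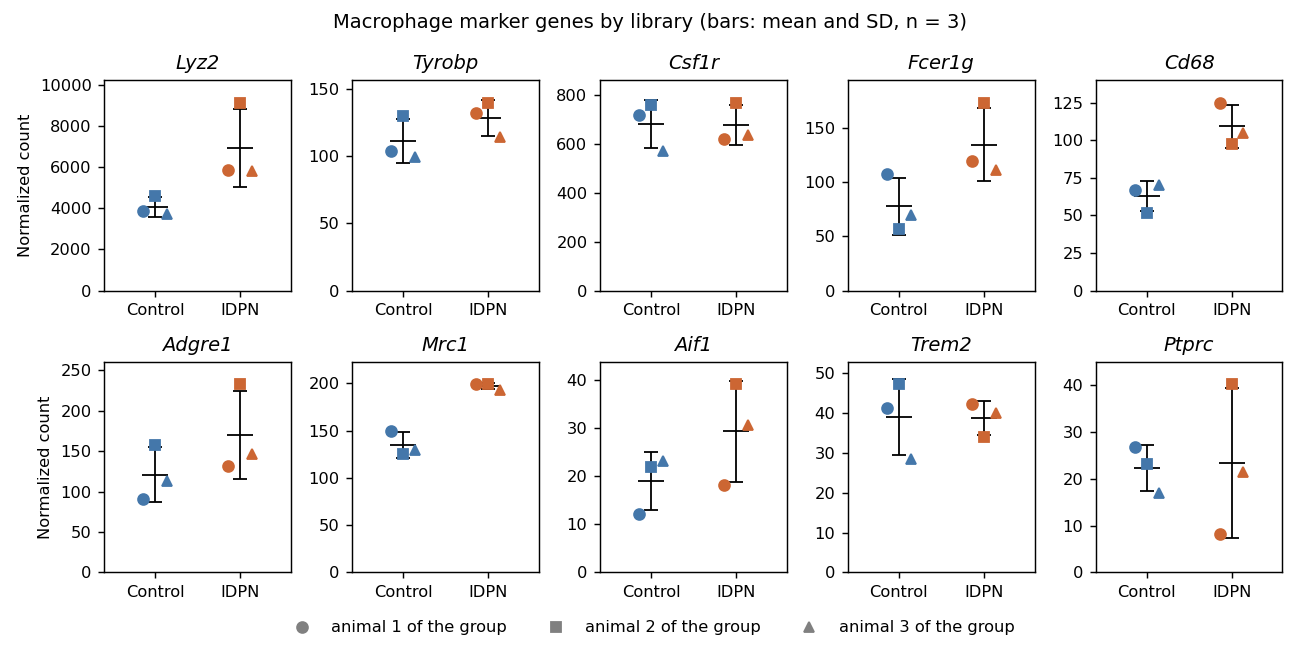
Normalized counts (vertical axes, linear from 0) of the 10 macrophage markers in each Control (blue) and IDPN (orange) library, ordered by level per kilobase in Control. Symbols tell the animals of a group apart and carry no pairing between groups, and bars give the mean and SD of 3 animals. Lyz2, Cd68, Mrc1 and Fcer1g have all IDPN animals above all Control animals. The second IDPN animal is the highest of the 6 for 8 of the 10 genes, for Mrc1 by a hair (199 in IDPN 1 and 2). How often this animal is highest over all genes was not counted.

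Levels between genes were compared as normalized counts per kilobase of exon, with all annotated exons of a gene merged. This length, 4946 bases for Trem2 and 18313 for Ptprc, can exceed that of the transcripts present. Levels so computed can then be too low, and the order below depends on the annotation. Lyz2 was by far the most abundant marker, at 3090 normalized counts per kilobase in Control. Tyrobp followed at 167, Csf1r at 118, Fcer1g at 88.7, Cd68 at 50.1, Adgre1 at 37.3, Mrc1 at 21.1, Aif1 at 12.4, Trem2 at 7.89 and Ptprc at 1.21. Some neighbours in this order could not be separated by their spread. Fcer1g lay between 64.7 and 122 in the Control libraries, overlapping Csf1r at 98.9 to 132, and Adgre1 lay between 28.1 and 48.8, overlapping Cd68 at 41.3 to 55.9. Trem2 lay between 5.76 and 9.57, overlapping Aif1 at 7.92 to 15.1. Lyz2 alone held 74.5% to 77% of the markers' raw counts in the Control libraries and 80.6% to 84.1% in the IDPN libraries. The other 9 markers together made up 25.7 to 29.1 ppm of the total count in Control and 37.1 to 40.6 in IDPN. Such shares carry the shift that put the median gene at 0.26 on the log2 scale with total-count size factors. As normalized counts those 9, grouped after the level of Lyz2 had been seen, summed to 1316, 1374 and 1121 in Control 1 to 3, against 1397, 1725 and 1400 in IDPN 1 to 3.

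The sequence before the transcription start is shown for the 4 markers whose groups did not overlap, since these are the members that stood higher together. Each run covers the 250 bases upstream of the RefSeq start in the GRCm38.p6 build, written 5′ to 3′ on the strand of the gene. Capitals mark GAGGAA or its reverse complement TTCCTC, a short form of the site bound by PU.1, the macrophage transcription factor encoded by Spi1.
Lyz2, chr10:117282273-117282522, minus strand: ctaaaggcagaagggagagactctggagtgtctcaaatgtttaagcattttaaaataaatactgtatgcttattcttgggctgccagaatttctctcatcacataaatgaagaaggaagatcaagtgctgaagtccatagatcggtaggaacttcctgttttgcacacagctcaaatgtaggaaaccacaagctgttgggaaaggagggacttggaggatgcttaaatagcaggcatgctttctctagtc
Cd68, chr11:69666171-69666420, minus strand: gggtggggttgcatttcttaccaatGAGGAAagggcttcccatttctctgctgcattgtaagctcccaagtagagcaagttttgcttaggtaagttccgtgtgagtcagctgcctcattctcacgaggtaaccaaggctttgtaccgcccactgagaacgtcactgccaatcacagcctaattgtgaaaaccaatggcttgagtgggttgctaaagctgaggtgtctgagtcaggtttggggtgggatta
Mrc1, chr2:14229164-14229413, plus strand: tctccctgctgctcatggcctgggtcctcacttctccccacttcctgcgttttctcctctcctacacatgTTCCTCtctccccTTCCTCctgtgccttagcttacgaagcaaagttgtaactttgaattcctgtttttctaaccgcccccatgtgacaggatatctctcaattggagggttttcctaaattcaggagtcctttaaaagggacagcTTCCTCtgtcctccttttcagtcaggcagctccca
Fcer1g, chr1:171234350-171234599, minus strand: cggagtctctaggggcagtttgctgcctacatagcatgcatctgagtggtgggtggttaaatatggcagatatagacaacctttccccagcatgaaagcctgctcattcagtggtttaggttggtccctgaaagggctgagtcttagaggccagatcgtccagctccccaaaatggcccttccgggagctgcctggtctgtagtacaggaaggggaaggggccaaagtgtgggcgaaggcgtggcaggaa
These letters occurred 3 times before Mrc1 and 1 time before Cd68, and did not occur in this stretch before Lyz2 or Fcer1g. Promoter windows of 300 bases were found for 7 of the 10 markers, with 2 windows for Ptprc. Of these 8 windows 5 (62.5%) held the letters on either strand, as did 28.3% of all 32851 windows. The longer form GAGGAAGT or ACTTCCTC, which contains the short one, was in 0 of the 8 and in 3.2% of all windows. A match describes the letters only and shows no binding, and a stretch without these letters is not shown to lack a site.

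Among the effector and uptake genes, Lyz2 (ENSMUSG00000069516.8, chromosome 10, 117277331 to 117282321, minus strand) had 3850, 4597 and 3735 normalized counts in Control 1 to 3, against 5878, 9133 and 5825 in IDPN 1 to 3. Every IDPN animal lay above every Control animal, and IDPN 2 lay well above the other two. The mean rose from 4061 ± 468 to 6945 ± 1894 (SD, n = 3 each), a log2-Fold_Change of 0.77 (standard error 0.20, DESeq2 Padj = 0.00401). It ranked 150 by p and 326 by fold change among the 410 genes called higher. The call did not hold with edgeR (log2-Fold_Change 0.78, edgeR adjusted p = 0.0708) or without IDPN 2 (0.53, DESeq2 Padj = 0.0402, under the fold-change threshold), where 1.35% of all genes tested were called higher. The neighbouring paralog Lyz1 had 0 to 66 raw counts per library against 3174 to 9096 for Lyz2. Of the 1241 windows of 76 bases (the read length) in the Lyz2 transcript, 72 (5.8%) also occur in Lyz1, so few reads could have been divided between both.

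Cd68 (chromosome 11, 69664213 to 69666153), a heavily glycosylated protein of lysosomes, had 66.7, 51.9 and 70.3 normalized counts in Control 1 to 3, against 125, 97.4 and 105 in IDPN 1 to 3. The groups were well separated, and here IDPN 2 was the lowest of the IDPN animals. The log2-Fold_Change was 0.79 (SE 0.33, 95% interval 0.15 to 1.43, DESeq2 Padj = 0.145), and without IDPN 2 it was 0.86. Mrc1 (chromosome 2, 14229392 to 14332057), the mannose receptor of resident and alternatively activated macrophages, had 150, 125 and 129 in Control, against 199, 199 and 193 in IDPN. The IDPN animals were close to one another, with a mean of 197 ± 3.19 against 135 ± 13.8 in Control (SD, n = 3 each). The log2-Fold_Change was 0.55 (SE 0.25, 95% interval 0.07 to 1.03, DESeq2 Padj = 0.197), and 0.54 without IDPN 2. Leaving out IDPN 2 moved neither gene by much, and neither was called in any of the 13 alternative fits.

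Of the signalling adaptors, Fcer1g (chromosome 1, 171229572 to 171234365), the common gamma chain of Fc receptors, had 107, 56.6 and 69.4 normalized counts in Control 1 to 3, against 119, 173 and 111 in IDPN 1 to 3. The groups did not overlap, but Control 1 came within a few counts of IDPN 3. Its log2-Fold_Change was 0.79 (SE 0.34, 95% interval 0.12 to 1.47, DESeq2 Padj = 0.178) and 0.57 without IDPN 2. Tyrobp (chromosome 7, 30413760 to 30417585), the adaptor of TREM2 and other receptors, had 104, 130 and 99.6 in Control, against 132, 140 and 114 in IDPN. The groups overlapped, with a log2-Fold_Change of 0.20 (SE 0.28, 95% interval −0.35 to 0.76, DESeq2 Padj = 0.804). Trem2 (chromosome 17, 48346401 to 48354147), a receptor for lipids and lipoproteins that signals through TYROBP, had 41.2, 47.3 and 28.5 in Control, against 42.2, 34.1 and 40.1 in IDPN. Its groups overlapped fully, with a log2-Fold_Change of 0.00 (SE 0.45, 95% interval −0.88 to 0.89, DESeq2 Padj = 0.999).

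Of the lineage receptors, Csf1r (ENSMUSG00000024621.15, chromosome 18, 61100598 to 61132149) had 717, 759 and 571 normalized counts in Control 1 to 3, against 622, 770 and 638 in IDPN 1 to 3. Both groups covered nearly the same range. The log2-Fold_Change was −0.01 (standard error 0.19, DESeq2 Padj = 0.988), and its 95% interval of −0.39 to 0.37 was the narrowest among the 10 markers and left out a 1.5-fold change in either direction. With total-count size factors the value was 0.25, where the median gene stood at 0.26. The last exon of Csf1r shares 873 bases with the gene Hmgxb3 on the opposite strand, and the libraries do not mark strand, so reads in that stretch cannot be assigned from strand. The normalized count of Hmgxb3 was 526 ± 65.2 in Control against 648 ± 101 for IDPN (SD, n = 3 each), and its log2-Fold_Change was 0.30 (DESeq2 Padj = 0.477). Adgre1 (chromosome 17, 57358691 to 57483527), an adhesion G protein-coupled receptor that is a classical mouse macrophage marker, had 91, 158 and 113 normalized counts in Control, against 132, 233 and 147 in IDPN. Control 2 lay above IDPN 1 and 3. The log2-Fold_Change was 0.50 (SE 0.32, 95% interval −0.14 to 1.13, DESeq2 Padj = 0.47), and 0.20 without IDPN 2.

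The remaining markers were too low for a firm statement. Aif1 (chromosome 17, 35170991 to 35176068), an actin-binding protein of macrophages and microglia, had 10, 19 and 26 raw counts in Control 1 to 3, against 22, 39 and 33 in IDPN 1 to 3. Its log2-Fold_Change was 0.61 with a 95% interval from −0.55 to 1.77 (DESeq2 Padj = 0.684). Ptprc (chromosome 1, 138062861 to 138175708), the phosphatase carried by all white blood cells, had 22, 20 and 19 raw counts in Control, against 10, 40 and 23 in IDPN. Both its highest and its lowest normalized count were in IDPN, 40.2 in IDPN 2 and 8.28 in IDPN 1. Its log2-Fold_Change was 0.07 (95% interval −1.24 to 1.37, DESeq2 Padj = 0.98) and −0.58 without IDPN 2, so neither a rise nor a fall of this size was detectable at this depth.

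**Figure D2:**
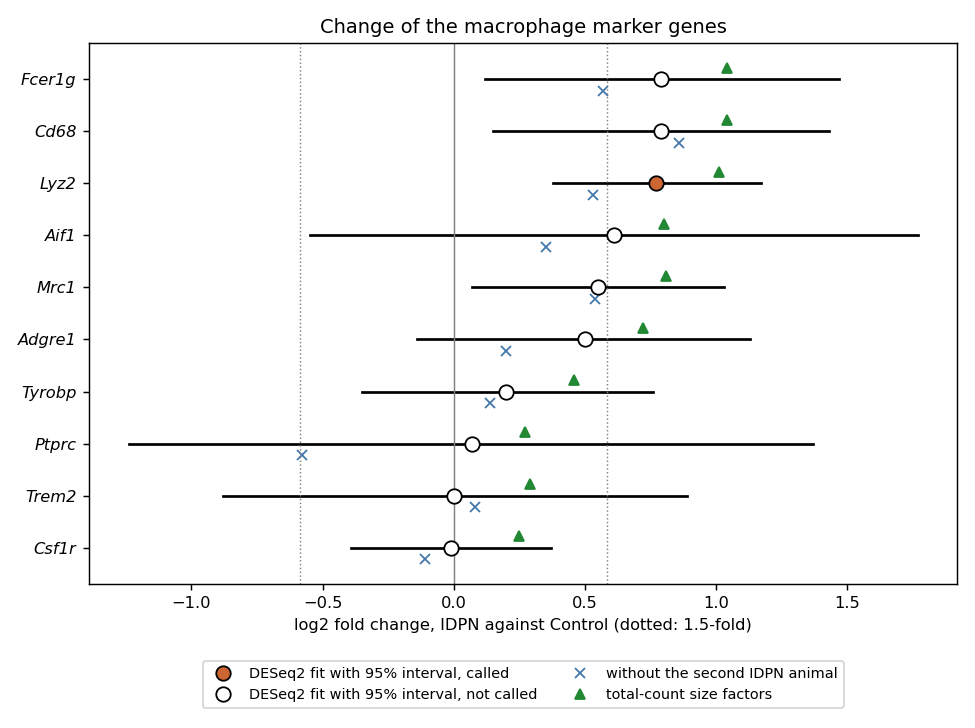
Log2-Fold_Change of IDPN against Control (horizontal axis) for the 10 macrophage markers, as DESeq2 estimates with 95% intervals (circles and lines, filled where called). Crosses give the fit without the second IDPN animal and triangles the fit with total-count size factors. Only Lyz2 is called, the intervals of Cd68, Mrc1 and Fcer1g lie above 0, and those of Csf1r, Trem2 and Ptprc are centred near 0.

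The markers were also read within each library, as the raw count of a marker per Csf1r count, a ratio that does not depend on size factors and was chosen after the data had been seen. Lyz2 reached 5.37, 6.05 and 6.54 counts per Csf1r count in Control 1 to 3, against 9.45, 11.9 and 9.13 in IDPN 1 to 3, a ratio of means of 1.69. For Cd68 the ratio of means was 1.73, for Fcer1g 1.71, for Mrc1 1.47, for Adgre1 1.4 and for Tyrobp 1.16, and for these 5 markers too every IDPN library lay above every Control library. Aif1 (1.49), Trem2 (1.03) and Ptprc (1.02) overlapped. Of all genes tested, 7.69% were higher per Csf1r count in every IDPN library. The gap was narrow for Adgre1 (0.211 in IDPN 1 against 0.208 in Control 2), Cd68 (0.126 in IDPN 2 against 0.123 in Control 3) and Tyrobp (0.178 in IDPN 3 against 0.174 in Control 3). Such ratios are relative to Csf1r and do not show that Csf1r itself stayed the same. The difference between the changes of single markers was not tested.

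**Figure D3:**
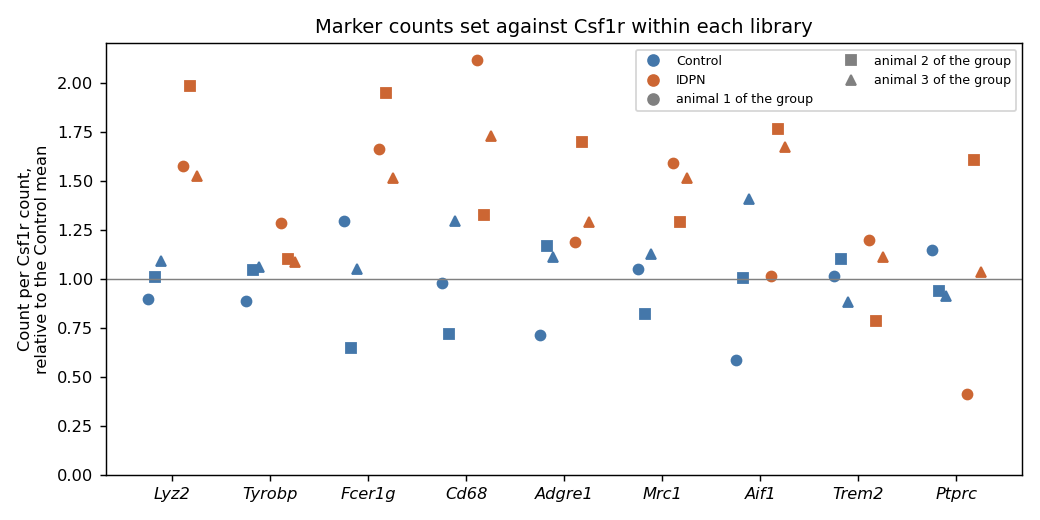
Raw counts of 9 markers per Csf1r count in each library (vertical axis, linear from 0, divided by the Control mean of the same marker). Lyz2, Tyrobp, Fcer1g, Cd68, Adgre1 and Mrc1 have all IDPN animals (orange) above all Control animals (blue), while Aif1, Trem2 and Ptprc overlap.

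Genes that act with the markers were taken from companion lists. Among the 14 CSF1R ligands and lineage factors, 0 were called in either direction with DESeq2 or edgeR. At an unadjusted p under 0.05, 2 were higher and 0 lower with each tool, where 7.77% (DESeq2) and 8.57% (edgeR) of all genes were higher. The median log2-Fold_Change of these 14 was 0.40. The ligand Csf1 had 146 ± 36.5 normalized counts in Control and 193 ± 51.4 in IDPN, and Il34 had 325 ± 34.1 and 426 ± 91.4 (SD, n = 3 each), with DESeq2 Padj of 0.552 and 0.385. Spi1, which encodes the myeloid transcription factor PU.1, had 30.3, 32.3 and 13.3 in Control, against 59.6, 48.2 and 42.9 in IDPN. Its groups did not overlap, with a log2-Fold_Change of 1.00 (standard error 0.50, DESeq2 Padj = 0.274). Zeb2 (0.47) did not overlap either (DESeq2 Padj = 0.21). These were the 2 of the 14 without overlap, against 11.1% of all genes tested with IDPN above. Maf, a transcription factor also used outside macrophages, was at −0.36 (DESeq2 Padj = 0.489), and without IDPN 3 it was called lower (−0.69, DESeq2 Padj = 0.0238), where 2.75% of all genes were.

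Receptors for immunoglobulin G, some of which signal through FCER1G, were among the companion genes called. Of the 18 genes of the ITAM receptor and signalling list, named for the tyrosine motif in the adaptors, 13 received a Padj. Their median log2-Fold_Change was 0.37. Of these 13, 2 were called higher (2.32% of all genes tested) and 0 lower (3.42%). Fcgr2b, the inhibitory receptor for immunoglobulin G, had 49.7, 69.3 and 75.6 normalized counts in Control 1 to 3, against 151, 163 and 155 in IDPN 1 to 3. The gap between the groups was wide, and the mean rose from 64.9 ± 13.5 to 156 ± 6.1 (SD, n = 3 each), a log2-Fold_Change of 1.26 (standard error 0.30, DESeq2 Padj = 0.00125). It was called with edgeR (edgeR adjusted p = 0.0318), with total-count size factors and in all 6 fits without 1 library. Fcgr1, the high-affinity activating receptor, had 14.6, 17.3 and 9.79 in Control, against 54.6, 27.1 and 54.1 in IDPN, a log2-Fold_Change of 1.72 (standard error 0.56, DESeq2 Padj = 0.0386). That call was lost with edgeR (edgeR adjusted p = 0.0923) and held in 1 of the 6 fits without 1 library, the one without IDPN 2 (DESeq2 Padj = 0.032, 0.07 to 0.25 in the other 5). Fcgr3, another activating receptor of this family, had a log2-Fold_Change of 0.65 (DESeq2 Padj = 0.238), without overlap between the groups. In this list 4 genes had every IDPN library above every Control library (11.1% of all genes tested) and 1 had every IDPN library below (11.4%). The latter was the kinase Lyn, at a log2-Fold_Change of −0.40 and not called (DESeq2 Padj = 0.453). The kinase Syk had 26.7 ± 9.68 and 40.3 ± 9.21 normalized counts (SD, n = 3 each, DESeq2 Padj = 0.634). Apoe, a ligand of TREM2 and one of the most abundant transcripts of the tissue, had 564619 ± 114010 and 474998 ± 38856 (SD, n = 3 each, DESeq2 Padj = 0.532). Trem1, Trem3 and Sirpb1a were at 0 counts in every library.

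For the 19 phagocytic and lysosomal genes the median was 0.16 on the log2 scale. With both DESeq2 and edgeR 0 were called. At an unadjusted p under 0.05, 6 were higher and 0 lower with each tool. Of all genes, 7.77% were higher at that p with DESeq2 and 8.57% with edgeR. The complement subunits were listed with different values, and the differences between them were not tested. C1qc, at 259 ± 108 and 451 ± 83.1 normalized counts (SD, n = 3 each), had a log2-Fold_Change of 0.80 (DESeq2 Padj = 0.0713), and was called without Control 2 (1.18, DESeq2 Padj = 0.00148), where 1.41% of all genes were called higher. C1qa (0.56, DESeq2 Padj = 0.232) and C1qb (0.11, DESeq2 Padj = 0.9) make the same protein complex and were not called. The lysosomal proteases Ctsb (−0.15) and Ctsd (−0.28), which most cells express, were not called (0.12 and −0.01 with total-count size factors), and Ctss (0.48), which is typical of macrophages, was higher in every IDPN library (DESeq2 Padj = 0.293). Laptm5, a lysosomal protein of blood cells, had a log2-Fold_Change of 0.75 (DESeq2 Padj = 0.0774) and was called without IDPN 3 (0.91, DESeq2 Padj = 0.0449), where 1.57% of all genes were called higher. With total-count size factors 4 genes of this list were called higher (C1qc, Ctss, Laptm5 and Grn), against 3.64% of all genes.

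Of the 18 genes of resident macrophages, 16 received a Padj, with a median log2-Fold_Change of 0.34. Of these 16, 1 was called higher (2.32% of all genes tested) and 0 lower (3.42%). Lyve1, a hyaluronan receptor shared by perivascular macrophages and lymphatic vessels, had 69.1, 117 and 147 normalized counts in Control 1 to 3, against 226, 379 and 217 in IDPN 1 to 3. All IDPN animals lay above Control, with a log2-Fold_Change of 1.30 (standard error 0.33, DESeq2 Padj = 0.00251), but the call was lost with edgeR (edgeR adjusted p = 0.0636) and without IDPN 2 (0.99, DESeq2 Padj = 0.0847). F13a1 (0.70), Cbr2 (0.67), Pf4 (0.84) and the haemoglobin scavenger receptor Cd163 (0.84) did not overlap either and were not called, with DESeq2 Padj of 0.0861, 0.143, 0.115 and 0.257. So 5 genes of the list had every IDPN library above every Control library, as did 11.1% of all genes tested. Others were flat or lower, such as Cd14 and Cd53 (0.03 each), Ly86 (0.01), Gas6 (−0.01) and Cd86 (−0.18). F13a1 was called without Control 2 (0.93, DESeq2 Padj = 0.0252). Cx3cr1, the fractalkine receptor used to trace macrophages in the ear, had 141 ± 49.9 and 131 ± 42.6 (SD, n = 3 each, log2-Fold_Change −0.10, DESeq2 Padj = 0.937). Of the 9 microglia genes, 1 was called higher (2.32% of all genes tested) and 0 lower (3.42%). This was Olfml3, a secreted protein that fibroblasts also make, at 542 ± 64.8 and 1248 ± 86.6 (SD, n = 3 each, log2-Fold_Change 1.20, DESeq2 Padj = 1.43e-09). It kept its call with edgeR and in all 6 fits without 1 library, while P2ry12 and Tmem119, which define microglia, had log2-Fold_Changes of 0.18 and 0.16 (DESeq2 Padj = 0.931 and 0.884).

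**Figure D4:**
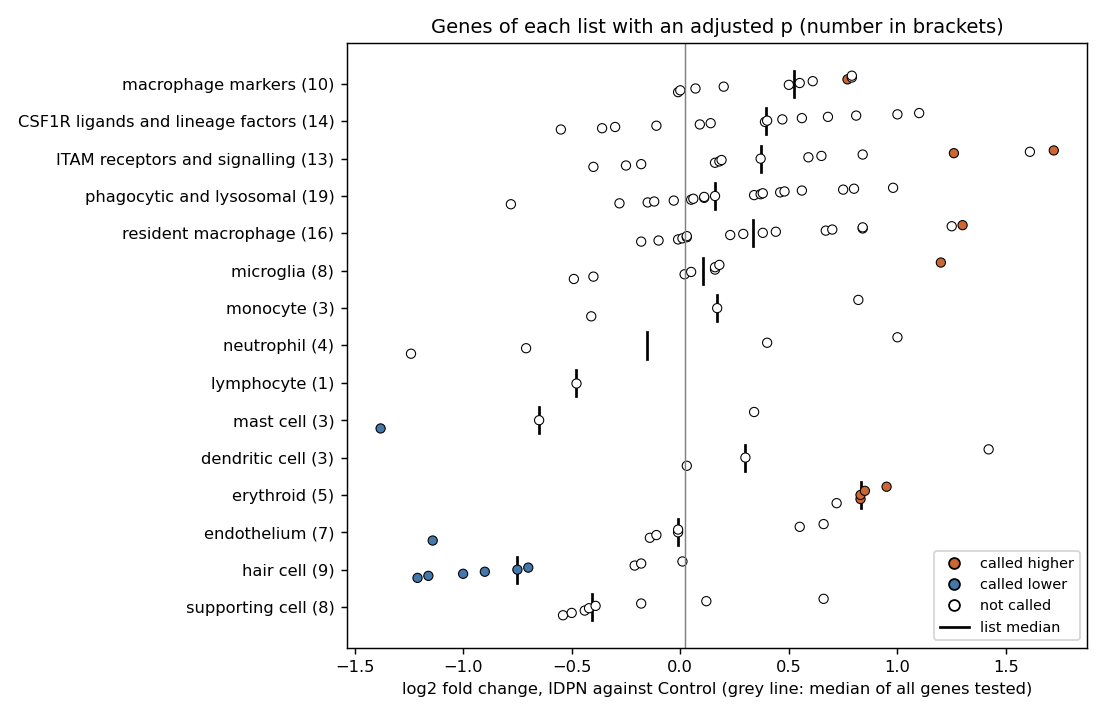
Log2-Fold_Change of IDPN against Control (horizontal axis) for every gene with a Padj in each list, filled orange where called higher and blue where called lower, with a black bar at the list median and a grey line at the median of all genes tested. The macrophage markers and most companion lists centre to the right of the grey line with few calls, the HC list centres to its left with 6 called lower, and the erythroid list has 4 called higher.

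Markers of other blood-derived cells that share some of these genes were scarce. Lyz2 and Fcer1g are also made by neutrophils. The 12 neutrophil genes summed to 30.2 to 68.1 normalized counts in Control and 29.9 to 76.3 in IDPN, highest in Control 2 and IDPN 2. S100a8 and S100a9 were at 0 raw counts in Control 1, IDPN 1 and IDPN 3. They had 16 and 11 in Control 2, 5 and 2 in Control 3, and 14 and 19 in IDPN 2. Control 2 and IDPN 2 were also the animals of their groups with the most Lyz2, while Fcer1g was lowest in Control 2 and highest in IDPN 2. The part of neutrophils in the Lyz2 value was not tested. The 10 monocyte genes summed to 72.8 to 101 and 84 to 89.4, and Plac8, Treml4 and Fcnb were at 0 in every library. Of the 13 lymphocyte genes 6 had no more than 3 raw counts in any library, and their sum of 131 to 238 in Control and 133 to 177 in IDPN came mostly from Cd79a. The 7 dendritic cell genes summed to 185 to 220 and 223 to 281, without overlap and mostly from Zbtb46, which endothelium expresses too. Over these 4 lists 0 genes were called by DESeq2 or edgeR. Of their genes with a Padj, Xcr1 alone passed an unadjusted p of 0.05, higher in IDPN with both tools (DESeq2 Padj = 0.187). Cd8a, too low for a Padj, had 0 raw counts in every Control library and 7, 5 and 2 in IDPN 1 to 3. Among the 9 mast cell genes, which also share Fcer1g, Kit was called lower (1348 ± 115 to 516 ± 70.6, SD, n = 3 each, log2-Fold_Change −1.38, DESeq2 Padj = 4.34e-12), but Kit marks melanocytes and other cells as well, and the proteases Cpa3, Tpsb2 and Tpsab1 lay between 0 and 26 raw counts.

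Transcripts of red blood cells were higher in IDPN on average. The 6 erythroid genes summed to 16166 to 36635 normalized counts in Control and 34690 to 49092 in IDPN, with Control 2 above IDPN 3. Of them 4 were called higher (Hba-a1, Hba-a2, Hbb-bs and Alas2), against 2.32% of all genes tested. With edgeR 0 were called, and 4 were higher at an unadjusted p under 0.05 (8.57% of all genes). The 3 called haemoglobin genes held their call in 1 of the 6 fits without 1 library, the one without Control 2. Hba-a1 had 4580, 10091 and 4648 in Control 1 to 3, against 11342, 13023 and 9870 in IDPN 1 to 3 (log2-Fold_Change 0.83, DESeq2 Padj = 0.0318). Hba-a1 and Hba-a2 are near-identical copies, so the division of reads between them is uncertain. IDPN 2 was highest for Hba-a1 as for Lyz2, and Control 2 was the highest Control animal for both. Cd68, Mrc1 and Fcer1g were lowest in Control 2. Cd68 was highest in IDPN 1, but Fcer1g was highest in IDPN 2, as was Mrc1 by a hair. The 7 endothelial genes summed to 6478 to 11108 in Control and 6094 to 9215 in IDPN, with a median log2-Fold_Change of −0.01. Of the 7, 1 was called lower (3.42% of all genes tested) and 0 higher. This was Kdr (−1.14, DESeq2 Padj = 9.96e-05, but not called with total-count size factors). At an unadjusted p under 0.05, 2 were higher (Tie1 at 0.66 and Tek at 0.55) and 1 lower with each tool. Tie1 was called higher with total-count size factors. The HC genes moved the other way from the erythroid genes. Of 9, 6 were called lower (3.42% of all genes tested) and 0 higher. With total-count size factors 3 were called lower, against 1.28% of all genes. The sum of the 9 genes, 18727 to 19050 in IDPN, lay below every Control library. The sums of the 8 supporting cell genes did not overlap either, at 84700 to 108871 in IDPN and 118484 to 143396 in Control, with a median log2-Fold_Change of −0.40. With DESeq2 and edgeR 0 of these 8 were called, and 2 were lower and 0 higher at an unadjusted p under 0.05 with each tool. The share of all genes lower at that p was not computed. The part of red blood cell transcripts and of the lower HC and supporting cell transcripts in the marker values was not tested.

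The genes with the most similar course over the 6 libraries were Nfatc4, Jpt1, Pkp2, Map2k3 and Zfp592. They lay nearest to the mean profile of the 10 markers among 11730 candidates, with a root mean square distance of 0.0527 to 0.064 on the log2 scale. By the same measure the markers lay 0.178 (Tyrobp) to 0.582 (Ptprc) from their own mean. The 5 genes were picked for nearness, so their smaller distances were fixed in advance and say nothing about the markers. Candidates also had a mean normalized count of at least 100, which Ptprc, Aif1 and Trem2 did not reach. The mean profile was −0.19, −0.11 and −0.30 in Control 1 to 3, against −0.01, 0.48 and 0.14 in IDPN 1 to 3, farthest from 0 in IDPN 2. None of the 5 was called, although Jpt1, Pkp2 and Map2k3 were called higher with total-count size factors (DESeq2 Padj = 0.0405, 0.031 and 0.00988), and their log2-Fold_Changes ran from 0.34 (Jpt1, Zfp592) to 0.50 (Map2k3).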

How the data were processed

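Vestibular epithelium of 3 Control and 3 IDPN mice was sequenced under a SMART-seq2 protocol (6 to 11 ng of RNA, 8 cycles of cDNA and 12 of library amplification), with neither strand marks nor molecular identifiers, so that several reads can stem from 1 molecule. According to the study's methods and the submitters' processing notes, the authors used STAR 2.5.3a on the GRCm38 build and RSEM 2.3.0, with a GENCODE release older than the one used here. What they deposited is RSEM's estimated count per gene (expected counts), already whole and not normalized.

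Counts were tested over the whole table with DESeq2 1.42.0 in R 4.3.3 (Wald test, median-of-ratios size factors, independent filtering, no covariate), as the study's methods name it. Normalized counts are counts divided by the size factor. edgeR 4.0.16 (quasi-likelihood test, TMM factors, filterByExpr) was the main alternative. Others were total-count or TMM size factors, a minimum of 10 counts in 3 libraries, filters switched off, no fold-change threshold, and each library left out. The fitting steps were tested on simulated data, where the share of false calls exceeded the nominal level with both tools and was higher with DESeq2 than with edgeR.

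Markers and lists were chosen with earlier results of these data known, so lists are described by counts and medians without a test. Every marker is named. From the companion lists, called genes, abundant genes and defining genes near 0 were to be named, with the 5 genes of mean normalized count at least 100 whose centred log2(normalized count + 1) profile was nearest the markers' mean. Not all are reported here, and some uncalled genes (such as Spi1 and Ctss) were named after their values were seen. One list symbol (Itgam) belonged to 2 genes, and the more abundant was used. Gene positions, exon lengths and transcripts came from GENCODE M21 and promoters from RefSeq (GRCm38.p6), both on the authors' build. Whether animals shared litters or cages is not given in the sources used here, and p-values measure only the spread between these 6 animals. Ratios to Csf1r and the sum without Lyz2 were added after seeing the data.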

Additional observations from a re-analysis of the deposited data

How the results depend on the processing

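Of the 10 markers, 9 kept their status of not called under all 13 alternatives, and Lyz2 kept its call under 11. The number of markers called higher was 0 with edgeR and ranged from 0 to 1 over the fits without 1 library (0 without IDPN 2). Their median log2-Fold_Change was 0.76 with total-count size factors and 0.28 to 0.60 without 1 library (lowest without IDPN 2). With edgeR 166 genes of the whole table (1.02%) were called higher and 357 (2.19%) lower, and 2 companion genes higher and 7 lower. With total-count size factors 214 genes of the whole table (1.28%) were called lower and 609 (3.64%) higher. In that fit 15 companion genes were called higher and 4 lower. In the main fit 410 genes of the whole table (2.32%) were called higher and 604 (3.42%) lower, and 8 and 8 in the companion lists. Both counts over the whole table lay below those that the study printed for this comparison. Shares are of all genes tested in the same fit, and the share of companion genes called was not computed. Without 1 library the calls over the whole table ran from 234 (1.35%, without IDPN 2) to 611 (3.82%, without Control 3) higher. Those lower ran from 436 (2.5%) to 720 (4.5%). In the companion lists the calls ran from 3 (without Control 1, IDPN 1 or IDPN 2) to 9 higher and 7 to 8 lower. The cause was not tested. No paired analysis was possible because the labels give the animals no shared replicate numbers. With 3 animals a group, the intervals of Ptprc and Trem2 include a 1.5-fold change in either direction, and among the 10 markers only that of Csf1r leaves out a 1.5-fold rise.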
